A study of Rattus norvegicus with 4 samples.

Results

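The genes described here are 6 enzymes that remove superoxide or peroxides or recycle glutathione (Sod1, Sod2, Cat, Gpx1, Gsr and Prdx1), the thioredoxin gene Txn1, and the metallothionein genes Mt1 and Mt2A. They were chosen by name, as the probes whose RefSeq accession maps to one of these rat symbols. The 9 genes had 10 probes and 55 spots per array, among 16581 genes with a symbol, 45598 probes and 58717 spots. The cells were NR8383, a rat alveolar macrophage line grown from lung lavage of a normal rat, described as being at 20 passages and growing as a mixture of adherent and floating cells. All 4 samples were cultures kept for 4 h with NRCWE055, which are pristine single-walled carbon nanotubes. The dose was 11 cm2/cm2, an area of nanotubes per area of culture. Replicates 2, 3 and 4 have source names with other NRCWE numbers, a different one for each. Their titles and treatment entries all give NRCWE055, and the titles were followed. The design calls the samples biological replicates and also names unexposed cells, which were not analysed here. No value below is therefore a response to the nanotubes, and no group is compared with another.

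Superoxide dismutases turn superoxide into hydrogen peroxide, Sod1 mainly in the cytosol and Sod2 in mitochondria. Catalase, glutathione peroxidases and peroxiredoxins then remove the peroxide, and glutathione reductase and thioredoxin return the oxidised enzymes or cofactors to their reduced state. Metallothioneins are small cysteine-rich proteins that bind zinc and other metals, and their genes are textbook targets of the metal-sensing transcription factor MTF1. Macrophages make superoxide on purpose during phagocytosis, so these enzymes also protect the cell from its own oxidants.

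Mt1 and Mt2A, which neighbour each other in the rat genome, were the pair of related members that differed in detection, and their promoters are shown for the motif that MTF1 is known to bind. Both come from RefSeq on build GRCr8 and run from 250 bases before the gene's start to 50 bases from it. The Mt1 window is on the minus strand at chr19:10832926-10833225 and the Mt2A window on the minus strand at chr19:10838659-10838958. Capitals mark matches to the metal response element core on either strand.
Mt1: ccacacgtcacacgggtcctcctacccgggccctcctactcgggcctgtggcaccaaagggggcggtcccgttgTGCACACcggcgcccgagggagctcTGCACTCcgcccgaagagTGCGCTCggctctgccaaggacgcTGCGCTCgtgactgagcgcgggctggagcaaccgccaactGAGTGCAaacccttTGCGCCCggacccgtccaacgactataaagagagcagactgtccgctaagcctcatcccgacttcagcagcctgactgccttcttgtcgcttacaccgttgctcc
Mt2A: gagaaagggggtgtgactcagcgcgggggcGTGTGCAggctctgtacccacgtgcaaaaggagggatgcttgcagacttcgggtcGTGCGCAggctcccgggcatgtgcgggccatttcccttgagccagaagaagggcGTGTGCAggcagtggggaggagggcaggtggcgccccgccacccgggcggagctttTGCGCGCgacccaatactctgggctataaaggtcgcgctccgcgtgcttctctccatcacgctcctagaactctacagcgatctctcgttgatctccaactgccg

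The metal response element was searched as TGCACNC or TGCGCNC on both strands. Mt1 had 6 matches and Mt2A had 4, and the promoters of the 6 other matched members had 0. Among all 33469 promoters of this length, 24.2% held at least 1 match, 0.0388% held 6 or more and 0.439% held 4 or more. A second motif, the antioxidant response element core bound by NRF2, was searched as TGACNNNGC on both strands. It was found once each in the promoters of Sod2, Prdx1, Mt1 and Mt2A, 4 of the 8 members with a promoter sequence, against 12.1% of all promoters. No match to one motif overlapped a match to the other. Whether the array probes of Mt1 and Mt2A also bind each other's RNA was not tested, since no probe sequences were used. The motif counts describe letters in this window and say nothing of binding in these cells. The Prdx1 window is shown because its probe differed between arrays in the spot test below, as did 65.7% of the probes printed 10 times. The Txn1 probe also differed, and the Txn1 promoter held 0 matches to either motif. Any link between promoter matches and array differences was not tested, and 4 arrays with the same exposure could not test one. The Prdx1 window is on the plus strand at chr5:135383656-135383955, and capitals mark its single antioxidant response element match, on the opposite strand.
Prdx1: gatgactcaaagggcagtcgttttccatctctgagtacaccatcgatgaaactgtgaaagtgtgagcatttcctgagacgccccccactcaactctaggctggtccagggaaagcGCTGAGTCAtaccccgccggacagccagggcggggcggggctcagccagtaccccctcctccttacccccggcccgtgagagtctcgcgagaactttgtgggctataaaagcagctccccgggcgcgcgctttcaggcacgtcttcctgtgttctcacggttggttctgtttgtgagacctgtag

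Of the 9 members, 8 were well above background on all 4 arrays, where 52.4% of the 16581 named genes were. Mt2A was the exception. Levels are given as log2 of the processed signal relative to each array's 75th percentile over probes detected on all arrays, so that 0 is that percentile. The percentile stood at a signal of 1756 on replicate 1, 2631 on replicate 2, 2861 on replicate 3 and 1873 on replicate 4. Replicates 2 and 3 were thus the brighter arrays. A level describes its probe, and levels of different genes are not compared as amounts of RNA. The 4 arrays lay on 1 slide and share 1 scan entry. Macrophage markers were above background on all arrays for 8 of 10 listed genes, Marco and Adgre1 being the exceptions. Markers of other lung lavage cells were so for 2 of 15 listed genes with a probe, the T cell kinase gene Lck and the neutrophil gene S100a8, while the fibroblast genes Dcn and Col1a1 were so on 2 arrays and 1 array. No array had Epcam, Cdh1, Sftpc, Krt18, Col3a1, Cd3e, Cd8a, S100a9, Alas2 or Hbb well above background. In RNA from a whole culture, fewer expressing cells and less RNA per cell cannot be told apart.

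Both intracellular superoxide dismutase genes were detected on all arrays. Sod1, which encodes the copper and zinc enzyme, had levels of 4.49, 4.55, 4.51 and 4.61 on replicates 1 to 4, a mean of 4.54 ± 0.055 (SD, n = 4). Sod2, which encodes the manganese enzyme and is also induced by NF-kB, had levels of 0.69, 0.73, 0.78 and 0.76, a mean of 0.74 ± 0.036 (SD, n = 4). The highest and lowest culture differed by 1.09-fold for Sod1 and by 1.06-fold for Sod2. With quantile normalization, which gives equal ranks on each array equal values, Sod1 was at 4.40, 4.62, 4.61 and 4.56, and its SD was 0.10. The SD of Sod2 was larger than or equal to that of 7.96% of the 8685 named genes detected on all arrays, whose median SD was 0.0926. Ccs, which encodes the chaperone that loads copper onto Sod1, was at 1.13 ± 0.068. Sod3, the secreted family member, was well above background on 1 array, with 2, 9, 5 and 2 of its 10 spots above background on replicates 1 to 4.

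Cat, which encodes catalase, was detected on all arrays but was dim, with processed signals of 115, 172, 186 and 163 on replicates 1 to 4. Its levels were -3.93, -3.93, -3.95 and -3.52, a mean of -3.83 ± 0.21 (SD, n = 4). Replicate 4 stood above the other 3, which lay within 0.014 of one another. Cat has 1 spot per array, so spot noise cannot be measured for it. From median signals with normexp background correction, in place of processed signals, its levels were -3.40, -3.59, -3.64 and -3.34, so that replicates 1 and 4 both stood above replicates 2 and 3.

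Gpx1 encodes the cytosolic glutathione peroxidase. Its 2 probes, each printed 10 times, gave levels of 4.75, 4.74, 4.72 and 4.77 for one and 4.07, 4.05, 4.02 and 4.05 for the other. The probes lay 0.70 ± 0.013 apart (SD, n = 4), so they differed in brightness by nearly the same amount on every array. The gene's mean of 4.40 ± 0.020 had an SD larger than or equal to that of 1.46% of detected named genes. With quantile normalization its SD was 0.066, and that share was 29.3%. Both shares set a mean of 2 probes with 10 spots each against genes not matched for spots or brightness. Gsr, which encodes glutathione reductase and returns oxidised glutathione to its reduced form, had levels of -1.92, -1.95, -2.06 and -2.02, a mean of -1.99 ± 0.063 (SD, n = 4). The cultures differed by at most 0.14 on the log2 scale for Gsr.

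Prdx1, a cytosolic peroxiredoxin, had levels of 2.14, 2.30, 2.26 and 2.27 on replicates 1 to 4, a mean of 2.24 ± 0.070 (SD, n = 4). Replicate 1 was the lowest and the other 3 lay close together. Mt1 had levels of 2.69, 2.73, 2.79 and 2.65, a mean of 2.72 ± 0.057 (SD, n = 4). All 10 spots of Mt1 and all 10 of Prdx1 were well above background on every array.

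Txn1, which encodes the cytosolic thioredoxin that reduces peroxiredoxins and other disulfides, varied most among the members. Its levels were 6.61, 6.15, 6.02 and 6.45 on replicates 1 to 4, a mean of 6.31 ± 0.27 (SD, n = 4), and the highest culture was 0.58 above the lowest. Replicates 1 and 4 were higher than replicates 2 and 3. Before scaling, the Txn1 signals were 171425, 186624, 186395 and 163891, which differed by 1.14-fold at most, while the 75th percentile of the arrays differed by 1.63-fold. No spot of Txn1 or of any other non-control probe was marked saturated on any array, so that flag does not set Txn1 apart. The 100 genes with the brightest probes moved the same way, with a median level of 0.17, -0.08, -0.16 and 0.08 relative to each gene's own mean on replicates 1 to 4, where Txn1 stood at 0.30, -0.16, -0.28 and 0.14. The part of this shared shift in the Txn1 values was not tested. With quantile normalization, Txn1 was at 6.33, 6.28, 6.28 and 6.33, an SD of 0.028. By mean level Txn1 ranked 4 among the 8685 named genes detected on all arrays. Quantile normalization ranks all non-control probes of an array, and a probe that keeps its rank gets nearly the same value on each array, whatever its signals.

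**Figure D1:**
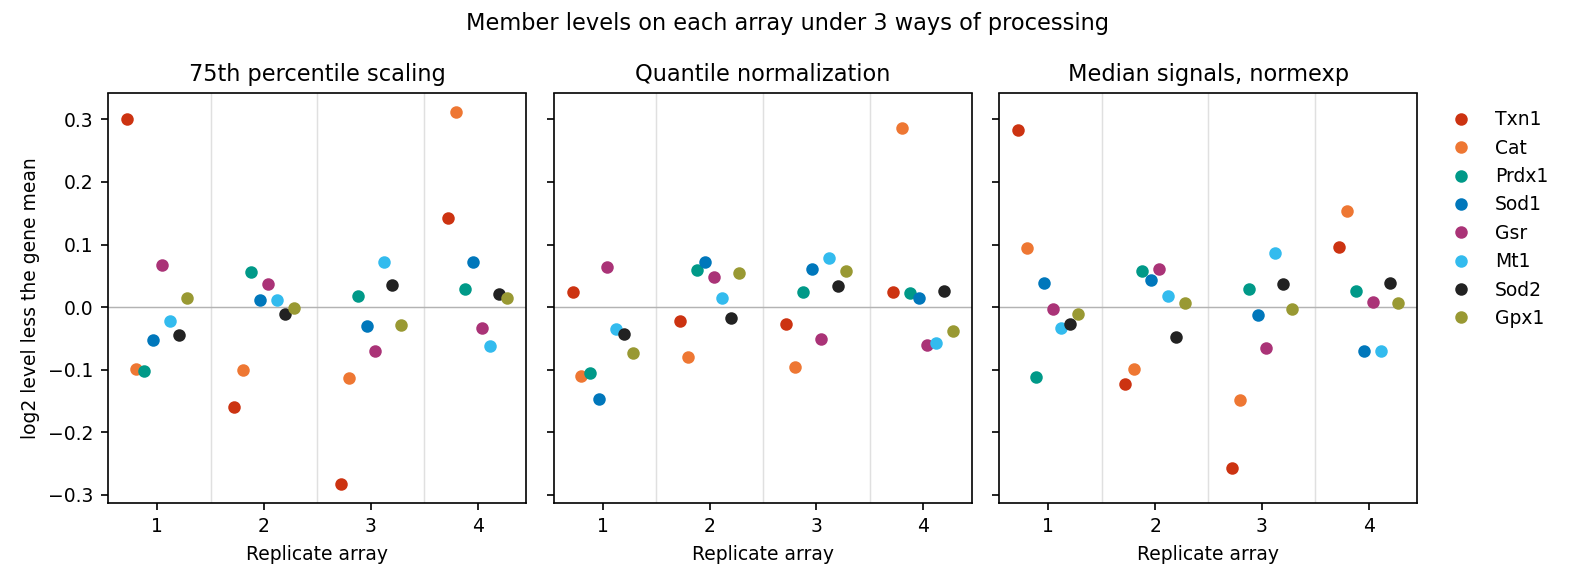
Each point is the log2 level of a member gene on 1 array less that gene's mean over the 4 arrays, under 75th percentile scaling, quantile normalization, and normexp correction of median signals. Txn1 ranges from 0.30 on replicate 1 to -0.28 on replicate 3 in the left panel and stays within 0.03 of its mean after quantile normalization.

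Of the 8 detected members, 6 had an SD below the median of all detected genes, and Cat and Txn1 were above it. With quantile normalization the 2 above it were Cat and Sod1, whose SD of 0.10 stood against a median of 0.0930. Without replicate 4 they were Txn1 and Prdx1, whose SD of 0.0824 stood against a median of 0.0797. No member spanned over 2-fold between cultures, where 1.11% of the detected genes did. By SD, Txn1 exceeded 92.7% and Cat 86.7% of detected genes or equalled them. Among the 100 brightest genes, however, the SD of Txn1 ranked 20 from the largest. These shares and that rank describe 4 arrays, a number that limits the precision of every SD.

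**Figure D2:**
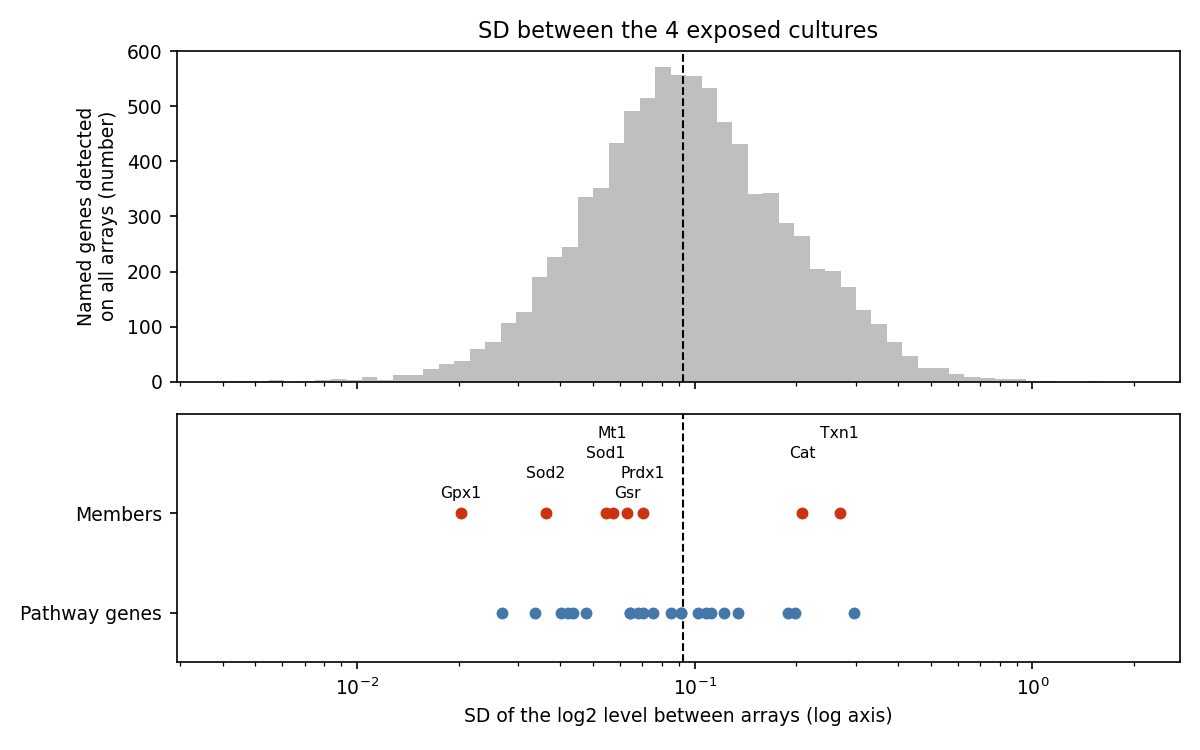
The upper panel counts the 8685 detected named genes by the SD of their log2 level between the 4 arrays (log axis), with the median of 0.0926 dashed. The lower panel marks the 8 detected members and the 22 detected pathway genes on the same axis, under 75th percentile scaling, with 6 members left of the median and Cat and Txn1 right of it.

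Members printed 10 times per array allowed array differences to be set against spot noise. This test compares arrays, and with 1 array per culture differences between cultures and differences between arrays cannot be told apart. In limma's moderated F test over replicate spots with Benjamini-Hochberg adjustment, 42.8% of the 1742 probes printed several times differed between arrays, and 65.7% of the 1038 printed 10 times. Of the 5 member probes printed 10 times, those of Txn1 and Prdx1 differed. The Txn1 probe had a largest difference between arrays of 0.58 against a spot SD of 0.054 (limma adjusted p = 4.43e-20). Only 22 of the 1038 probes printed 10 times, Txn1 included, differed by that much or more, and their median largest difference was 0.16. The Prdx1 probe had a largest difference of 0.16 against a spot SD of 0.094 (limma adjusted p = 0.00784). The Mt1 probe had a largest difference of 0.14 (limma adjusted p = 0.0616), and the Gpx1 probes had 0.053 (limma adjusted p = 0.416) and 0.048 (limma adjusted p = 0.438).

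The calls on bright probes depended on how the arrays were scaled. Quantile normalization gives a probe that keeps its rank nearly the same value on each array. With it, the Txn1 difference was 0.060 and did not pass (limma adjusted p = 0.159). The Gpx1 probes then differed by 0.18 (limma adjusted p = 6.08e-06) and 0.089 (limma adjusted p = 0.00843). The cause of these changes was not tested. Mt1 passed with quantile normalization (limma adjusted p = 0.0427), with the median of detected probes (limma adjusted p = 0.0149), with the 75th percentile of all probes (limma adjusted p = 0.00904), with the looser detection flag (limma adjusted p = 0.0490) and without replicate 2 (limma adjusted p = 0.0261). Prdx1 did not pass without replicate 1, where its largest difference was 0.054 (limma adjusted p = 0.619), or from median signals with normexp correction, where that difference was 0.17 (limma adjusted p = 0.197).

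**Figure D3:**
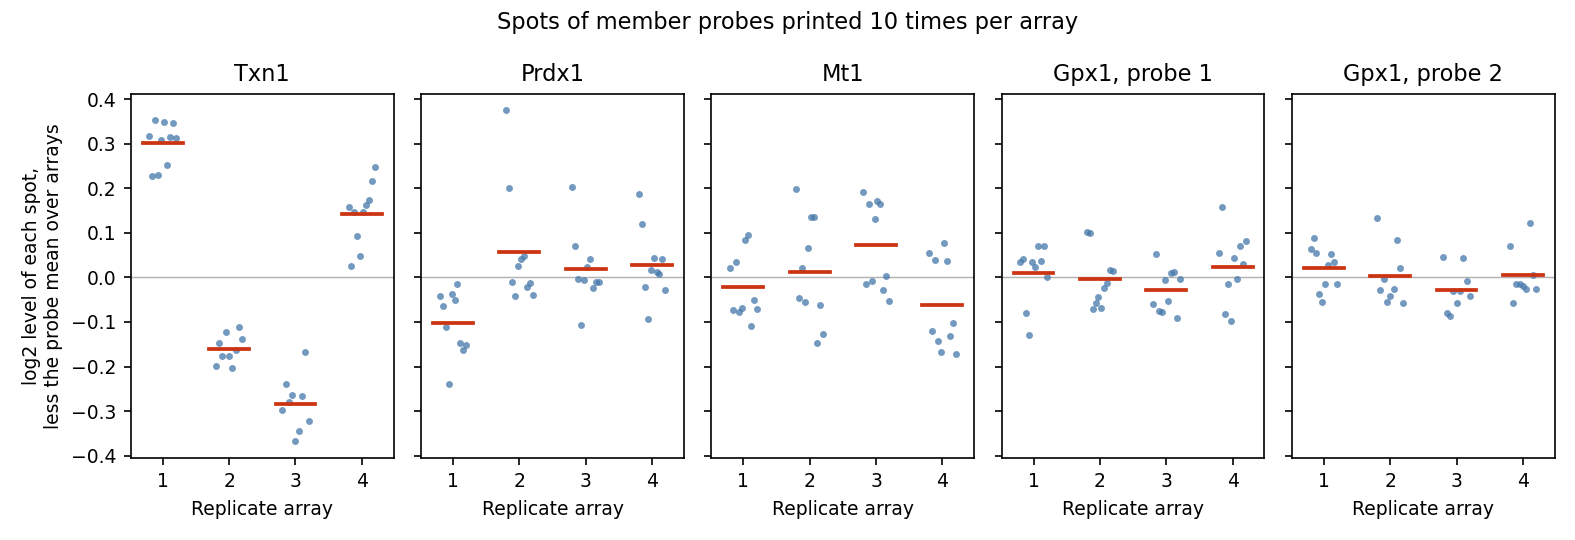
Each point is 1 spot of a member probe printed 10 times per array, as its log2 level less the probe's mean over arrays, and red bars are array means. The Txn1 spots of replicates 1 and 4 lie above those of replicates 2 and 3 without overlap, whereas the spots of both Gpx1 probes overlap between arrays.

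The measured genes with 4-array patterns nearest to Txn1, by Euclidean distance between levels less their own means, were Rpl32 at 0.017, Car9 at 0.042 and Apoc4 at 0.042. They encode a ribosomal protein, a carbonic anhydrase and an apolipoprotein. Rpl32 had levels of 5.72, 5.28, 5.15 and 5.58, while the mean level was -5.09 for Car9 and -1.79 for Apoc4. With 4 arrays and 8684 genes to choose from, near matches are easily found.

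Mt2A lay at the edge of detection. Its single spot had processed signals of 12.8, 24.4, 21.1 and 14.2 on replicates 1 to 4 and was well above background on replicates 2 and 3, the brighter arrays. On those 2 arrays its levels were -6.75 and -7.09, and the lowest detected levels of any probe were -7.40 and -7.49. A detected probe cannot lie below that lowest level, so this adds nothing on the detection of Mt2A. On replicates 1 and 4 its levels of -7.10 and -7.04 were below the lowest detected levels of -6.81 and -6.89. The scaled levels thus overlapped between arrays with and without detection. Of 308 negative control spots, 304, 306, 308 and 305 had a lower signal than Mt2A on replicates 1 to 4. Its signal was 2.64, 4.83, 3.97 and 2.89 times the 95th percentile of those spots. The looser detection flag, which asks only for signal significantly over background, was set for Mt2A on all 4 arrays.

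**Figure D4:**
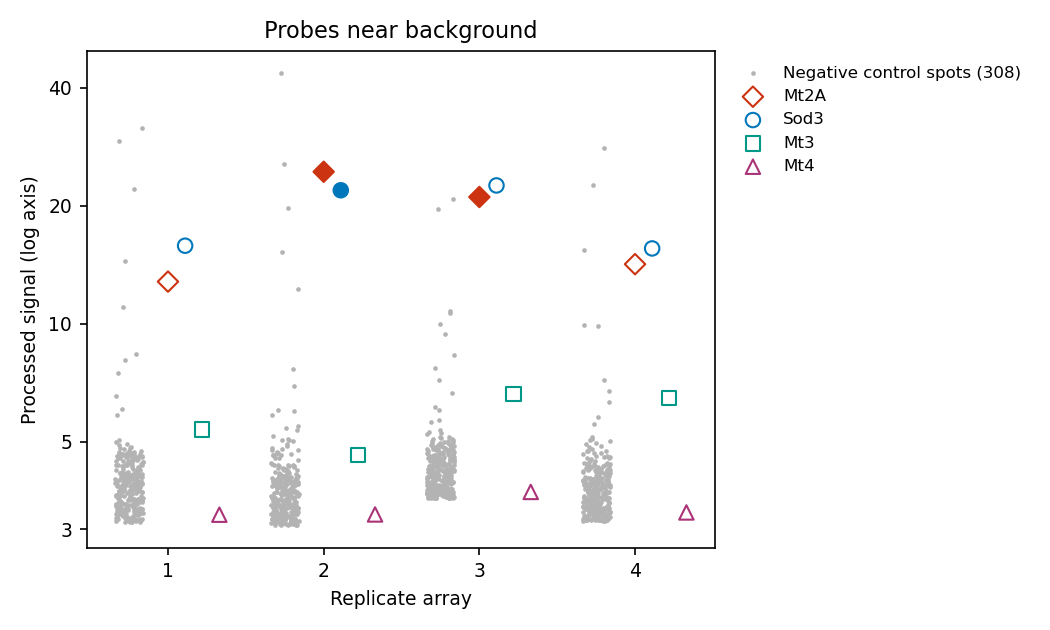
Processed signals (log axis) of Mt2A, Sod3, Mt3 and Mt4 on each array beside the 308 negative control spots in grey, with filled symbols where the probe was well above background. Mt2A is filled on replicates 2 and 3 at 24.4 and 21.1, and Mt4 lies among the negative controls on all arrays.

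The other genes of these pathways were taken from 4 lists with 32 genes, of which 31 had a probe and 22 were well above background on all arrays, 71.0% against the 52.4% of all named genes. Their median SD was 0.080, and 14 of the 22 were below the median of all detected genes.

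Peroxiredoxins and thioredoxin partners were detected on all arrays for 10 of 11 genes. All of Prdx2 to Prdx6 were among them, with Prdx2 at 3.49 ± 0.027, the mitochondrial Prdx3 at 0.49 ± 0.13, Prdx4 of the secretory pathway at 0.50 ± 0.12, Prdx5 at 5.32 ± 0.040 and Prdx6 at 0.81 ± 0.091 (SD, n = 4 each). Prdx3 was printed 2 times and had levels of 0.37, 0.40, 0.54 and 0.66, which differed between arrays (limma adjusted p = 0.0126), as did 9.09% of the 704 probes printed 2 times. Prdx5 did not pass that test (limma adjusted p = 0.0617). The mitochondrial thioredoxin gene Txn2 had levels between 1.05 and 1.15 on the 4 arrays (SD 0.042), and Srxn1, which encodes the enzyme that restores overoxidised peroxiredoxins, was at 2.39 ± 0.075. Txnrd1 and Txnrd2, which encode thioredoxin reductases, were at -2.42 ± 0.070 and -1.32 ± 0.11. The probes averaged for Txnrd1 lay 1.39 apart and had SDs of 0.21 and 0.085. Txnip, which encodes a thioredoxin-binding inhibitor, had levels of -1.93, -1.88, -2.30 and -2.00. Txnrd3 was detected on 3 arrays.

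Glutathione peroxidases and glutathione supply genes were detected for 7 of 12 genes with a probe. Gpx4, the peroxidase that reduces lipid peroxides in membranes, was at 4.69 ± 0.048, its 2 probes lying 2.08 apart. No array had Gpx2, Gpx3, Gpx7 or Gpx8 well above background. For glutathione synthesis, the catalytic subunit gene Gclc was at 0.55 ± 0.085 and the synthetase gene Gss at -0.59 ± 0.064, whereas no array had the modifier subunit gene Gclm well above background, its signal of 3.75 to 4.49 lying below the 95th percentile of negative control spots each time. Slc7a11, which encodes the cystine importer subunit, was at -3.17 ± 0.10, with probes 3.96 apart. The glutaredoxin genes Glrx, Glrx3 and Glrx5 were at 0.73 ± 0.034, 2.19 ± 0.064 and 2.00 ± 0.091. Of the 2 Glrx5 probes, only 1 was detected on all arrays and enters that value. No probe was matched to Glrx2.

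Metallothionein and zinc handling genes were detected for 4 of 6 genes. No array had Mt3 or Mt4, metallothioneins known mainly from brain and stratified epithelium, well above background. Mtf1, which encodes the metal-sensing factor, was at -5.36 ± 0.11, its probes lying 1.45 apart. Slc30a1, the zinc exporter gene and itself a target of MTF1, had levels of -1.33, -1.79, -1.19 and -1.15, lowest on replicate 2. Its SD of 0.30 was the largest among the 22 pathway genes. The zinc importer gene Slc39a1 was at -0.63 ± 0.043, with probes 5.71 apart, and Slc39a14 was at -5.87 ± 0.20.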

How the data were processed

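Total RNA of 4 exposed NR8383 cultures was labelled with Cy3 and hybridised to Agilent arrays of 1 colour. The submitters' processing notes and the file headers name Agilent Feature Extraction 11.0.1.1. Each deposited processed signal is a spot's intensity, background-subtracted and detrended within its array per the file headers, with no normalization between arrays. Median spot and background intensities, as deposited, served only an alternative, since no mean spot signal was used here.

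Control spots and outlier spots (427 to 714 per array) were left out, log2 signals averaged per probe, and a probe called detected when its well-above-background flag was set for over 0.5 of the usable spots. Arrays detected 18585 to 19931 probes (40.8% to 43.7%), so scaling used the 17807 detected on all arrays. A gene's level is the mean of its detected probes. Symbols came from RefSeq accessions, for 21109 probes. Arrays were compared on their replicate spots by the moderated F statistic of limma 3.58.1 (R 4.3.3) at a threshold of 0.05, and these p-values measure the spread of spots, not of cultures. On simulated arrays of 1742 probes, differences of 0.1, 0.25, 0.5 and 1 were recovered in 26%, 70%, 90% and 96% of 50 probes each, and 0.649% of unchanged probes were called. The simulated spots were independent, with each change on 1 array and no shift shared by bright probes. Probes printed 2 and 10 times were pooled. These rates therefore do not carry over to the member probes. Spread otherwise carries no test. Alternatives covered background correction, scaling, detection, outlier spots, averaging and single replicates. Figures were drawn with matplotlib 3.10.9.

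Named genes are the members and pathway lists, whatever their values, and the 3 genes nearest to the most variable member. Members and lists were chosen with earlier results of these data known. A marker gene on the lists is not reported here.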

Additional observations from a re-analysis of the deposited data

Results flagged for a closer look

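A single array stood apart from the other 3 by Dixon's ratio, the gap to the nearest array over the whole range, for 3 of the 30 member and pathway genes detected on all arrays, at the 95% critical value for 4 samples. For independent, normally distributed levels, chance flags about 1 in 20, which is 1.5 of 30. The share flagged among all detected named genes was not computed, so 3 of 30 is not read as a trait of these genes. Cat had a ratio of 0.966 with replicate 4 highest. That ratio was 0.197 from median signals with normexp correction and 0.888 or more under the other ways of processing all 4 arrays. Gclc had a ratio of 0.916, at 0.68 on replicate 4 and 0.50 to 0.51 elsewhere, although its 2 spots per array did not show a difference beyond spot noise (limma adjusted p = 0.133). Txnrd1 had a ratio of 0.864 with replicate 4 highest. One Txnrd1 probe was at -1.42 on replicate 4 against -1.90 to -1.77 elsewhere, while its other probe was lowest on that array, at -3.21. Mt2A, which is not counted among these, had a ratio of 0.843, at -6.75 on replicate 2 and -7.10 to -7.04 elsewhere. Its spot was not well above background on replicates 1 and 4, so that ratio rests partly on signals too dim to be called detected. The ratio was 0.160 from median signals with normexp correction and 0.560 with quantile normalization, both under the critical value.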

How the results depend on the processing

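Of the alternatives that can change detection, the looser flag gave 9 members detected, and keeping outlier spots, leaving out each replicate and asking for at least 3 arrays gave 8. Background correction, scaling and averaging use the same deposited flag and cannot change that number. The number of probes differing between arrays, 746 of 1742, was 222 from median signals with normexp correction and 525 to 694 when single replicates were left out. The cause of the lower number was not tested. Other scalings moved the level of all genes together, by a median of 2.43 for the median of detected probes, 3.61 for the 75th percentile of all probes and 0.78 for the looser flag. Normexp correction of median signals moved genes unevenly, by a median of 0.20, with Sod1 at 4.25 and Mt2A at -4.79 in place of 4.54 and -6.99. Including such shifts, 75 of 117 repeated member levels moved by less than the SD between arrays. The 117 include taking the brightest probe per gene and dropping the filter on dim probes. Those settings could change no member level except that of Gpx1, the only member with 2 probes, so that number does not measure robustness. Of 50 repeated tests of single member probes, 40 kept their side of the threshold, and the other 10 are those named above. Leaving out 1 replicate moved these SDs by over 1.5 times. They were 0.013 for Cat and 0.035 for Sod1 without replicate 4, 0.027 for Prdx1 and 0.017 for Sod2 without replicate 1, 0.012 for Gpx1 and 0.035 for Mt1 without replicate 3, and 0.029 for Mt2A without replicate 2. The SD of Gpx1 was 0.0090 with normexp correction, that of Mt2A 0.28, and that of Prdx1 0.046 from the median of replicate spots. No paired analysis was possible because there is 1 group. Signal over background limits Mt2A, Sod3 and Txnrd3, whose levels on arrays without detection are dim and uncertain.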
